A study of Homo sapiens with 12 samples.

Results

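The 6 genes described here encode secreted proteins that act on blood and lymphatic vessels: placental growth factor (PGF), the vascular endothelial growth factors A, B and C (VEGFA, VEGFB and VEGFC), adrenomedullin (ADM) and angiopoietin-like 4 (ANGPTL4). They were followed through every probe annotated to them on an Illumina expression bead array, 12 of the 47313 probes with values. Of these, 10 passed a filter on dim probes, which asked for a detection p below 0.05 on 3 arrays or more, and with the brightest such probe taken per gene, all 6 genes were among the 12178 genes tested. The genes were selected on their log2 changes between the groups of these same 12 arrays, so their values are given as a description and without p-values.

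RNA came from Tet21N cells, a human neuroblastoma line in which doxycycline shuts down an N-Myc transgene. There were 4 groups of 3 arrays: siMondoA with doxycycline (Myc off), siMondoA without doxycycline (Myc on), siControl with doxycycline (Myc off) and siControl without doxycycline (Myc on), where siControl is a non-specific siRNA. MondoA, encoded by MLXIP, is a glucose-responsive transcription factor. Doxycycline was given at 1 microgram/ml and the treatment lasted 3 days. All groups are 1 line, all were transfected, and there was no group given doxycycline without the transgene, so effects of the agent itself and of N-Myc loss cannot be told apart. Whether the 3 arrays of a group came from separate cultures is not stated in the labels. The p-values therefore reflect array-to-array spread that may be only technical.

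Between 39.15% and 43.81% of probes were detected per array, and arrays of 1 group correlated at 0.986 to 0.992 across genes. Neither targeted gene could check the labels, since the single MLXIP probe was detected on 1 array and no MYCN probe on any. TXNIP, the best known target of MondoA, fell by 4.42 on the log2 scale with siMondoA under doxycycline and fell by 3.35 without it (limma, adjusted p = 2.9e-10 and 8.6e-09). Endogenous MYC, which N-Myc is known to repress, rose by 2.95 with doxycycline in siControl cells (adjusted p = 3.1e-08). In siMondoA cells it rose by 1.00 with doxycycline (adjusted p = 0.00015). With knockdown MYC rose by 1.78 without doxycycline (adjusted p = 2e-06), and with doxycycline the change was -0.17 (adjusted p = 0.32). MYC therefore did not follow doxycycline alone. Of 12 adrenergic neuroblastoma markers, 11 had a probe. HAND2, GATA2 and ISL1 were detected on all 12 arrays, GATA3 on 11, CHGB on 9, CHGA on 2, PHOX2A and STMN2 on 1 each, and TH, DBH and ELAVL4 on none. CHGB was detected on 0 arrays of siControl cells without doxycycline, at a mean of 4.57, against 5.38 in siControl cells with doxycycline. Of 10 endothelial markers, 5 were detected on 0 arrays (CDH5, VWF, TEK, CLDN5 and EMCN), while EGFL7 was detected on 11, PECAM1 on 4, ESAM on 2, and KDR and ROBO4 on 1 each. Their mean log2 level was 4.67 to 4.79 in siMondoA arrays and 4.79 to 4.91 in siControl arrays. Of 7 blood cell markers, PTPRC, HBA1, ITGAM and CD3E were detected on 0 arrays, HBB on 1, CD14 on 9 and CD68 on all 12, with a mean level of 5.39 to 5.53 in siMondoA arrays and 5.34 to 5.52 in siControl arrays. CD14 averaged 5.66 in siMondoA cells with doxycycline and 5.88 without it, against 5.04 in siControl cells with doxycycline and 5.22 without it. EGFL7 averaged 5.82 and 5.26 in the same siMondoA groups and 6.22 and 6.06 in the siControl groups. All 8 fibroblast and smooth muscle markers were detected on all 12 arrays. Their mean log2 level was 9.53 to 9.65 in siMondoA cells with doxycycline, 8.73 to 8.88 in siMondoA cells without it, 10.39 to 10.51 in siControl cells with doxycycline and 9.65 to 9.70 in siControl cells without it.

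PGF, VEGFA and VEGFB bind the receptor FLT1, VEGFA also drives vessel growth through KDR, and VEGFC acts mainly through FLT4 on lymphatic vessels, with the neuropilins NRP1 and NRP2 as co-receptors. Adrenomedullin is amidated by PAM and signals through CALCRL paired with RAMP2 or RAMP3. ANGPTL4 inhibits lipoprotein lipase, and its gene is a known target of PPAR nuclear receptors. VEGFA, ADM and ANGPTL4 are classic genes of the hypoxia response, in which the factors HIF1A and EPAS1 bind DNA with ARNT.

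The 250 bases upstream of the start are shown for the 4 genes whose levels differed most between groups, because MondoA and N-Myc are known to bind the E-box CACGTG, and HIF factors a shorter core, ACGTG or GCGTG. Sequences are from RefSeq on GRCh38.p14, written 5′ to 3′ on the strand of the gene, with capitals marking ACGTG or GCGTG on either strand (CACGT and CACGC where the match is on the other strand).
PGF (chr14:74955765-74956014, minus strand): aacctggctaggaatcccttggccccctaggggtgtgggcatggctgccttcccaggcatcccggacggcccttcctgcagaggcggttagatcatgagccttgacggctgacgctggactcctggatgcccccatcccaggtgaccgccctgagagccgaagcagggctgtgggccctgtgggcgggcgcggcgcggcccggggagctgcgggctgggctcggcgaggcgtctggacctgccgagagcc
VEGFC (chr4:176792923-176793172, minus strand): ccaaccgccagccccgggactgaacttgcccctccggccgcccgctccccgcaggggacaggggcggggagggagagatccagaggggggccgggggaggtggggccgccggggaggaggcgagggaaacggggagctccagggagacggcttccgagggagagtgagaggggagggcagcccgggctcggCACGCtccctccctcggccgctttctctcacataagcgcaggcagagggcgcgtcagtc
ADM (chr11:10304823-10305072, plus strand): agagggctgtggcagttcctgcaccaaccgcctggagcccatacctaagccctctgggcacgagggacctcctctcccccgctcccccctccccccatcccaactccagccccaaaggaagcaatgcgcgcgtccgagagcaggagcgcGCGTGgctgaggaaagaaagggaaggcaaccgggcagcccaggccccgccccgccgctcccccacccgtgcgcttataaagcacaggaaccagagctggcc
ANGPTL4 (chr19:8363905-8364154, plus strand): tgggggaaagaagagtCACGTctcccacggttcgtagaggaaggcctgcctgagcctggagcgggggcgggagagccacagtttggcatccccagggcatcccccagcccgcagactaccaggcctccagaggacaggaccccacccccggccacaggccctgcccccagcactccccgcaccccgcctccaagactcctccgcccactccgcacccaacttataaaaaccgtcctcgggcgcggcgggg
Of the 6 genes, 5 had an entry and VEGFA did not. None of the 6 windows of these 5 genes held CACGTG, which 6.34% of 35116 such windows hold. The ACGTG or GCGTG core stood once each in the windows of VEGFB, VEGFC, ADM and ANGPTL4, at 61, 59, 101 and 234 bases before the start, and in none of the bases shown for PGF. A second listed start of PGF had 1 match at 162 bases. This core is common: 43.2% of all windows hold it, and any CACGTG also contains it. Such letters are a description of the window and not evidence of binding.

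PGF was the ligand that differed most between groups. PGF, VEGFC and ADM had no second probe with values, so no other probe could check their changes. Its log2 levels were 9.93, 9.78 and 9.74 in siMondoA cells with doxycycline and 8.29, 8.25 and 7.65 in siMondoA cells without it, against 6.70, 7.19 and 6.47 in siControl cells with doxycycline and 6.60, 7.22 and 6.98 in siControl cells without it. Every siMondoA array therefore lay above every siControl array, and among siMondoA cells those with doxycycline lay above those without, while the siControl groups overlapped. On the scale of the deposited intensities the spread ran from 928.1 to 992.1 in siMondoA cells with doxycycline, and from 196.8 to 274.9 in siControl cells with doxycycline.

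With doxycycline, PGF was 8.17-fold higher in siMondoA than in siControl cells, a log2 change of 3.03 ± 0.22 (SE, n = 3 arrays each). This log2 change ranked 3 from the top of the 12178 in that comparison, and it was among the values on which the gene was selected. Without doxycycline the knockdown difference was 2.19-fold (log2 change 1.13), rank 110 from the top. The knockdown change with doxycycline exceeded that without it by 1.90 ± 0.31 on the log2 scale. Doxycycline itself went with a 3.37-fold higher level in siMondoA cells (log2 change 1.75), and in siControl cells with a log2 change of -0.15 that lay within the spread. In RNA from whole cultures, more cells making PGF and more PGF transcript per cell cannot be told apart. The plot of the 6 genes by array shows these levels beside those of the other ligands.

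**Figure D1:**
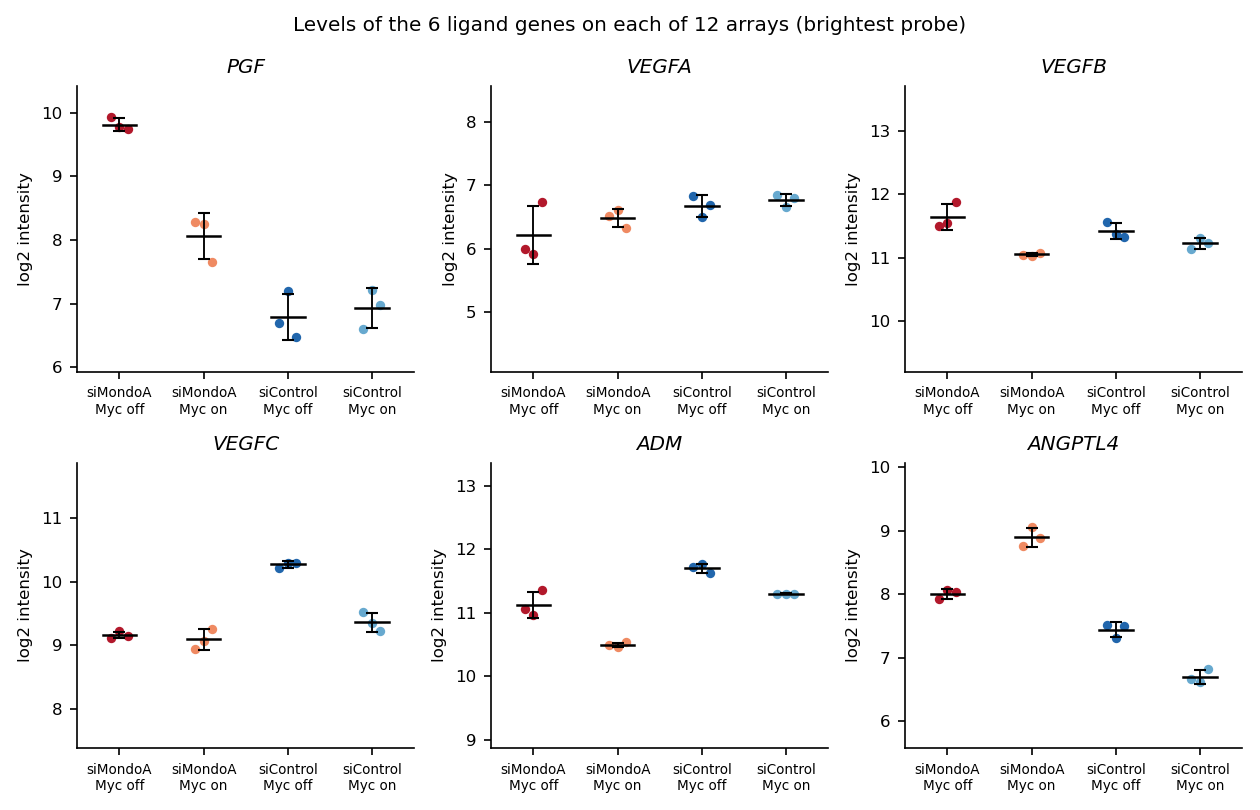
Normalized log2 intensity (vertical axis, every panel spanning the same range of log2 units) of the 6 ligand genes on each array, by group (siMondoA and siControl, with doxycycline as Myc off and without as Myc on). Points are single arrays and black bars are the mean ± SD of 3. PGF reached 9.74 to 9.93 in siMondoA cells with doxycycline and 6.47 to 7.22 over the 6 siControl arrays, and ANGPTL4 ranked differently, with its highest levels in siMondoA cells without doxycycline.

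VEGFA, the main driver of vessel growth, was low and differed little between groups. Its brightest probe read 5.99, 5.92 and 6.74 in siMondoA cells with doxycycline and 6.51, 6.60 and 6.33 in siMondoA cells without it, against 6.83, 6.49 and 6.68 in siControl cells with doxycycline and 6.84, 6.66 and 6.79 in siControl cells without it. Neighbouring groups in the order of levels overlapped throughout, and the group means spanned 1.46-fold. Without doxycycline, siMondoA arrays all lay below siControl arrays, by 1.22-fold (log2 change -0.29). With doxycycline the log2 change was -0.45 ± 0.19 and the groups overlapped. That value ranged from -0.71 without siMondoA with doxycycline replicate 3 to -0.30 without replicate 2 of that group, and it was -0.19 without background correction. A second VEGFA probe was detected on 4 arrays, all of them siControl, and the remaining probe on 0.

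VEGFB, a ligand of FLT1 that is not known as a hypoxia gene, was brightly detected. Its levels were 11.50, 11.55 and 11.88 in siMondoA cells with doxycycline and 11.05, 11.03 and 11.08 in siMondoA cells without it, against 11.57, 11.37 and 11.33 in siControl cells with doxycycline and 11.14, 11.31 and 11.23 in siControl cells without it. Arrays with doxycycline lay above those without in both siRNA groups, by 1.51-fold in siMondoA cells (log2 change 0.59 ± 0.12) and by 1.15-fold in siControl cells (0.20). With doxycycline the siRNA groups overlapped (log2 change 0.22). Without doxycycline siMondoA arrays lay below siControl arrays (log2 change -0.18), but under median scaling of the arrays this value turned to 0.09. A second VEGFB probe, also detected on all 12 arrays, gave log2 changes of 0.32 with knockdown under doxycycline and -0.39 without it, with no overlap in either comparison. It differed from the brighter probe on doxycycline in siControl cells, at -0.02, and the remaining probe was detected on 1 array.

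VEGFC, the lymphatic ligand, was highest in a single group. It read 9.12, 9.22 and 9.15 in siMondoA cells with doxycycline and 8.94, 9.07 and 9.26 in siMondoA cells without it, against 10.21, 10.30 and 10.30 in siControl cells with doxycycline and 9.52, 9.35 and 9.22 in siControl cells without it. The siControl cells with doxycycline stood above all other arrays, while both siMondoA groups overlapped. With doxycycline VEGFC was 2.16-fold lower in siMondoA than in siControl cells (log2 change -1.11 ± 0.11), and without doxycycline the difference was -0.27 with overlapping arrays, and -0.02 under median scaling. Doxycycline went with a 1.88-fold higher level in siControl cells (log2 change 0.91) and with a change of 0.07 in siMondoA cells, where the arrays overlapped. The knockdown change with doxycycline minus that without was -0.84 ± 0.16.

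ADM was lower with siMondoA and higher with doxycycline in each pairing. It read 11.05, 10.96 and 11.35 in siMondoA cells with doxycycline and 10.49, 10.46 and 10.53 in siMondoA cells without it, against 11.71, 11.76 and 11.62 in siControl cells with doxycycline and 11.29, 11.30 and 11.30 in siControl cells without it. All 4 of these pairwise comparisons separated the arrays. ADM was 1.49-fold lower in siMondoA cells with doxycycline (log2 change -0.58 ± 0.11) and 1.75-fold lower without it (-0.81). With doxycycline it was 1.55-fold higher in siMondoA cells (0.63) and 1.32-fold higher in siControl cells (0.40). The 2 knockdown changes differed by 0.23 ± 0.16, a value that was -0.02 under median scaling. The mean over the 8 fibroblast and smooth muscle markers was, like VEGFC and ADM, highest in siControl cells with doxycycline (10.39 to 10.51), and it was lowest in siMondoA cells without it (8.73 to 8.88). ACTA2 and PDGFRA were exceptions: ACTA2 was highest in siMondoA cells with doxycycline (11.20) and lowest in siControl cells with doxycycline (10.07), and PDGFRA was highest in siControl cells without doxycycline (8.24). The part of these markers in the results was not tested.

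ANGPTL4 had the only order of groups in which every neighbouring pair was separate. Its brightest probe read 7.92, 8.07 and 8.04 in siMondoA cells with doxycycline and 8.76, 9.06 and 8.88 in siMondoA cells without it, against 7.52, 7.31 and 7.50 in siControl cells with doxycycline and 6.66, 6.62 and 6.83 in siControl cells without it. Both siMondoA groups stood above both siControl groups, and doxycycline went in opposite directions under the 2 siRNAs. Without doxycycline ANGPTL4 was 4.59-fold higher in siMondoA cells (log2 change 2.20 ± 0.11), rank 21 from the top of the 12178 genes, and with doxycycline 1.48-fold higher (0.57). Like that of PGF, this rank comes from values on which the gene was selected, and it belongs to the brightest probe. Cells with doxycycline had a 1.85-fold lower level under siMondoA (log2 change -0.89) and a 1.67-fold higher level under siControl (0.74).

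The second ANGPTL4 probe, annotated to the transcript NM_001039667, shared the direction of the knockdown and not that of doxycycline. It read 6.83, 6.37 and 6.56 in siMondoA cells with doxycycline and 6.51, 6.83 and 6.53 in siMondoA cells without it, against 5.65, 5.73 and 5.91 in siControl cells with doxycycline and 6.25, 5.54 and 5.58 in siControl cells without it. Knockdown changes were 0.82 ± 0.19 with doxycycline and 0.83 without, so that they differed by -0.01 ± 0.27, against -1.63 ± 0.16 on the brighter probe. Doxycycline changes were -0.04 and -0.03. The remaining probe was detected on 3 arrays and overlapped in every comparison. The dependence of ANGPTL4 on doxycycline therefore rests on 1 probe.

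**Figure D2:**
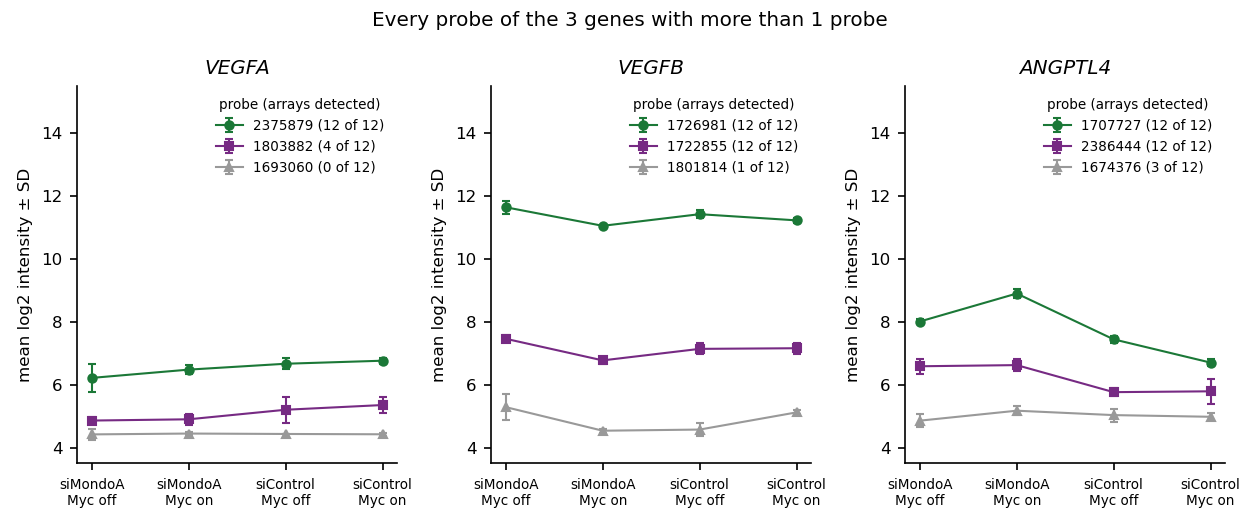
Mean log2 intensity ± SD of 3 arrays (vertical axis) in the 4 groups (horizontal axis) for each probe of VEGFA, VEGFB and ANGPTL4, with the number of arrays on which it was detected in the legend. Lines join the group means of 1 probe and do not compare levels between probes. The ANGPTL4 probe detected on 12 arrays with the higher signal peaked in siMondoA cells without doxycycline at 8.90, while the other probe detected on 12 arrays had 6.59 and 6.62 in the siMondoA groups.

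Set side by side, the ligands did not share a direction. With doxycycline, the knockdown comparison called 2 of the 6 higher (PGF and ANGPTL4) and 2 lower (VEGFC and ADM), where 43.8% of all genes were called, and the median change was -0.12 against 0.03 over all genes. Without doxycycline 2 were called higher and 1 lower (ADM), against 24.8% of all genes. Doxycycline in siMondoA cells called 3 higher and 1 lower (ANGPTL4), against 30% of all genes, and in siControl cells 3 higher, against 30.9%. The interaction called 1 higher (PGF) and 2 lower (VEGFC and ANGPTL4), against 3.55% of all genes higher and 5.15% lower, 8.7% together. Arrays of the groups compared did not overlap for 4, 5, 4 and 4 of the 6 genes in the pairwise comparisons, in that order, where 52.3%, 40.4%, 41.8% and 45% of all genes did not. Because these contrasts chose the genes, nothing is read from these counts. The knockdown comparisons share no array with each other, but each shares its siRNA groups with the doxycycline comparisons.

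**Figure D3:**
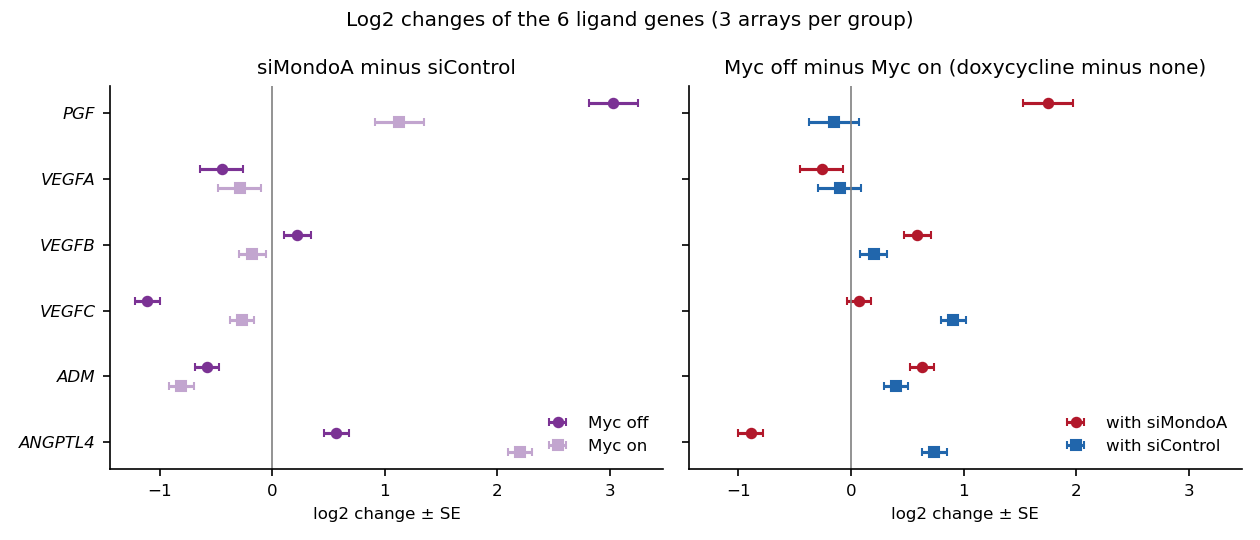
Log2 change ± SE (horizontal axis) of the 6 genes on the brightest probe, for siMondoA minus siControl with and without doxycycline (left) and for doxycycline minus none under each siRNA (right), 3 arrays per group. PGF stands furthest right on the left panel at 3.03 with doxycycline, and ANGPTL4 lies on opposite sides of 0 on the right panel, at -0.89 with siMondoA and 0.74 with siControl.

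By Pearson correlation over the 12 arrays, which fall into 4 groups and so mostly record the order of the group means, the genes most like PGF were ATP6V1F (0.985) and ATP6V0B (0.982), subunits of the proton pump that acidifies lysosomes, then EDF1 (0.976) and MTIF3 (0.972). Those most like VEGFC were DOCK2 (0.974), DNAJB2 (0.973), ITGB4 (0.971) and PLCD4 (0.970), and those most like ADM were CDC42EP5 (0.976), PLD3 (0.975), GSTZ1 (0.974) and NUPR1 (0.969). ANGPTL4 was followed most closely by TMEM158 (0.970), ANXA10 (0.960), ZYX (0.953) and UTS2 (0.952). For VEGFB these were BCHE and HOXB2 (0.934 each), APPBP2 (0.925) and C2CD2 (0.917). VEGFA, with its small range, was followed less closely after FAM53A (0.963), by ITPKA (0.922), ZNF266 (0.885) and PWWP2B (0.870).

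The gene lists that follow were also chosen with earlier results of these data known. Their counts beside the shares of all genes are therefore a description. The signalling receptors of these ligands were at or below the detection limit in these cells. FLT1 was detected on 0 arrays, KDR on 1 and FLT4 on 1, so none was tested. The co-receptor NRP1 averaged 10.86 ± 0.07 in siMondoA cells with doxycycline and 10.25 ± 0.02 without it, against 11.44 ± 0.18 in siControl cells with doxycycline and 10.01 ± 0.13 without it (log2, SD, n = 3 arrays). NRP1 rose with doxycycline by 1.43 ± 0.11 in siControl cells (limma, adjusted p = 3.9e-06) and by 0.61 in siMondoA cells (adjusted p = 0.0017, and 0.057 under median scaling). With doxycycline it fell with knockdown by 0.59 (adjusted p = 0.0012), a call that ended when its probes were averaged (adjusted p = 0.051), while without doxycycline the change was 0.24 (adjusted p = 0.16). The other NRP1 probe rose less with doxycycline, by 0.65 in siControl cells and by 0.48 in siMondoA cells (adjusted p = 0.018 and 0.069). NRP2 gave 1.47 and 0.80 with doxycycline in siControl and siMondoA cells on its brightest probe (adjusted p = 4.6e-05 and 0.0032), but another probe gave -0.86 and -0.55, and averaging the probes ended both calls, so its direction is uncertain.

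On the adrenomedullin side, CALCRL was detected on 0 arrays and RAMP3 on 1, and RAMP2 did not pass the test in any comparison (log2 changes from -0.14 to 0.16 on its brightest probe). That probe was dim, at 5.45 and 5.41 in siControl cells with and without doxycycline. Another RAMP2 probe, detected on 7 arrays, gave knockdown changes of 0.29 with doxycycline and -0.46 without it. Its doxycycline changes were 0.50 in siMondoA cells and -0.25 in siControl cells, none past the test. Of the 4 tested genes of this list, knockdown called 2 lower and 0 higher with or without doxycycline (all genes 22% and 12.5% lower), and doxycycline called 3 higher and 0 lower under each siRNA (all genes 15.1% and 16.3% higher). PAM, which amidates adrenomedullin and other peptides, fell with knockdown by 0.72 ± 0.11 with doxycycline (adjusted p = 0.00016) and by 0.56 without it (adjusted p = 0.0023, and 0.13 under median scaling). It rose with doxycycline by 0.43 in siMondoA cells (adjusted p = 0.0087, and 0.17 under median scaling) and by 0.59 in siControl cells (adjusted p = 0.0013). ACKR3, a scavenger receptor for CXCL12 that also takes up adrenomedullin, averaged 9.99 in siMondoA cells and 12.08 in siControl cells with doxycycline, and 8.58 and 9.21 without it. ACKR3 fell with knockdown by 2.09 ± 0.13 with doxycycline (adjusted p = 1.8e-07) and by 0.64 without it (adjusted p = 0.0035, and 0.075 under median scaling). It rose with doxycycline by 1.41 in siMondoA cells and by 2.87 in siControl cells (adjusted p = 1.5e-05 and 3.1e-08). RAMP1, which pairs with CALCRL to form the CGRP receptor, rose with doxycycline by 0.81 ± 0.13 in siMondoA cells and by 0.71 in siControl cells (adjusted p = 0.00072 and 0.0017).

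**Figure D4:**
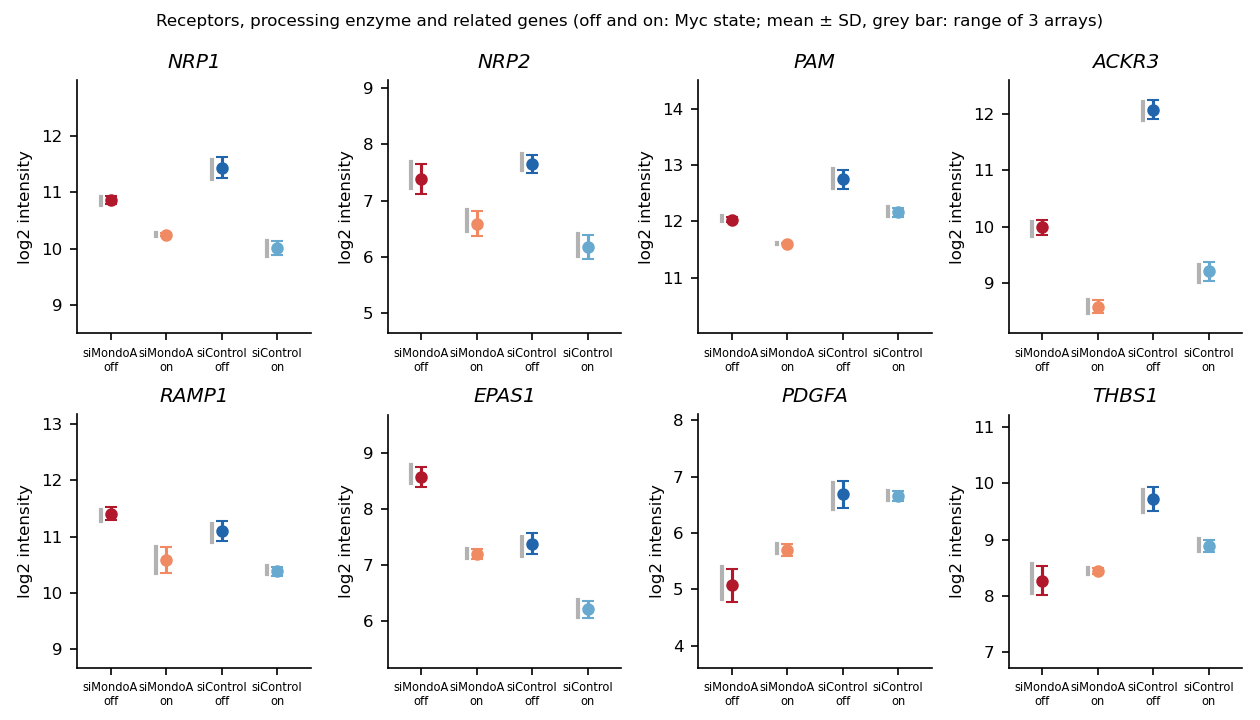
Log2 intensity (vertical axis, every panel spanning the same range of log2 units) of 8 genes related to the ligands in the 4 groups, as mean ± SD of 3 arrays with their full range as a grey bar. ACKR3 and PAM were highest in siControl cells with doxycycline (12.08 and 12.75) and lowest in siMondoA cells without it (8.58 and 11.60), while EPAS1 was highest in siMondoA cells with doxycycline (8.57).

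Of the other ligands of the family, VEGFD was detected on 0 arrays and PDGFB on 1. All 3 tested platelet-derived growth factors fell with knockdown under doxycycline (all genes 22%): PDGFA by 1.61 ± 0.16, PDGFD by 0.87 and PDGFC by 0.58 (adjusted p = 5.9e-06, 9.1e-05 and 0.0046). Without doxycycline 2 of the 3 fell (all genes 12.5%), PDGFA by 0.96 and PDGFD by 0.54 (adjusted p = 0.00088 and 0.0059, the second 0.11 under median scaling). Their median log2 change was -0.87 with doxycycline and -0.54 without it, against 0.03 over all genes in either case. With doxycycline, PDGFA fell by 0.63 in siMondoA cells (adjusted p = 0.0087, and 0.067 without background correction), and no member passed the test in siControl cells.

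Among 9 tested HIF factors and regulators, knockdown called 4 higher and 2 lower with doxycycline (all genes 21.8% and 22%) and 3 higher and 2 lower without it (12.4% and 12.5%). With each array left out, the 5 calls without doxycycline ranged from 2 to 5 and the lower ones from 0 to 3. None was lower without siMondoA without doxycycline replicate 1 or siControl without doxycycline replicate 2 or 3, nor under median scaling. Doxycycline called 4 higher in siMondoA cells and 3 in siControl cells (15.1% and 16.3%), and 0 lower. EPAS1, the HIF-2 alpha subunit, rose in all 4 pairwise comparisons. EPAS1 averaged 8.57 in siMondoA cells with doxycycline and 7.20 without it, against 7.38 in siControl cells with doxycycline and 6.22 without it. It rose with knockdown by 1.19 ± 0.13 with doxycycline and by 0.98 without (adjusted p = 1.9e-05 and 0.00026), and with doxycycline by 1.37 in siMondoA cells and 1.16 in siControl cells (adjusted p = 2.4e-05 and 5.5e-05). HIF1A on its brightest probe gave -0.36, -0.28, 0.09 and 0.17 in the same order, none past the test. With knockdown under doxycycline all 3 HIF1A probes were lower, and the other 2 passed the test, at -0.54 and -0.83 (adjusted p = 0.044 and 0.00023), where the brightest had an adjusted p of 0.23. With doxycycline in siControl cells these 2 probes gave 0.28 and 0.46 (adjusted p = 0.34 and 0.018). Their interactions were -0.59 and -0.75 (adjusted p = 0.23 and 0.028). ARNT rose in siMondoA cells with doxycycline against those without by 0.80 ± 0.19 (adjusted p = 0.0067). With knockdown under doxycycline it rose by 0.57 (adjusted p = 0.027, and 0.16 under median scaling), a call also lost without siMondoA with doxycycline replicate 1 or 2 or without siControl with doxycycline replicate 2 or 3. HIF1AN, which hydroxylates and restrains HIF factors, rose with knockdown by 0.85 with doxycycline and 0.71 without (adjusted p = 0.00037 and 0.0033). VHL, which marks HIF proteins for destruction, fell by 0.76 and by 0.59 (adjusted p = 0.0035 and 0.026). The second of these calls was lost under median scaling (adjusted p = 0.28), and without siMondoA without doxycycline replicate 1 or siControl without doxycycline replicate 2 or 3. Other VHL probes gave -0.82 and -0.43 with doxycycline (adjusted p = 0.0029 and 0.028). Without doxycycline the same probes gave -0.2 and -0.66 (adjusted p = 0.48 and 0.0061). CITED2, a competitor of HIF factors for their coactivator, rose with doxycycline in siControl cells by 0.72 (adjusted p = 0.00064).

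The hypoxia-inducible genes outside the 6 did not move in 1 direction. Of 29 tested, knockdown called 6 higher and 9 lower with doxycycline (all genes 21.8% and 22%) and 3 higher and 5 lower without it (12.4% and 12.5%), with median changes of -0.17 and -0.01. The 5 lower calls without doxycycline became 3 without siMondoA without doxycycline replicate 1 or 2 or siControl without doxycycline replicate 1 or 2, and 2 under median scaling, where SLC2A1, BNIP3L and DDIT4 were lost. The 3 higher calls became 5 without siControl with doxycycline replicate 3 and 9 under median scaling. Doxycycline called 6 higher and 2 lower in siMondoA cells (15.1% and 14.9%), and 7 higher and 2 lower in siControl cells (16.3% and 14.6%), with median changes of 0.08 and 0.13. The 2 lower calls in siMondoA cells became 4 without siMondoA with doxycycline replicate 2, and 1 without replicate 3 of either siMondoA group. LOX, the collagen crosslinking enzyme, rose with knockdown by 0.89 ± 0.13 with doxycycline and 0.96 without (adjusted p = 0.00018 and 0.00032). The glucose transporter SLC2A1 fell by 0.98 with doxycycline, and SLC2A3 by 1.06 without it (adjusted p = 1.8e-05 and 3.3e-05). HK2, which traps glucose as its phosphate, fell with doxycycline by 0.94 in siMondoA cells and by 1.49 in siControl cells (adjusted p = 0.00021 and 7.7e-06), but its other probe gave -0.39 and -0.32 (adjusted p = 0.33 and 0.43). BHLHE40, a transcriptional repressor, rose by 1.15 and by 1.38 (adjusted p = 2.3e-05 and 4.5e-06).

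Of 8 tested PPAR-inducible genes other than ANGPTL4, knockdown called 2 higher and 1 lower with and without doxycycline (all genes 21.8% and 22%, and 12.4% and 12.5%), with medians of 0.30 and 0.22. The 3 calls without doxycycline became 1 without siControl without doxycycline replicate 2 or 3. PLIN2, which coats lipid droplets, rose by 0.73 ± 0.12 with doxycycline and 0.67 without (adjusted p = 0.00041 and 0.0019). HADHA, a subunit of the mitochondrial beta-oxidation complex, rose by 0.79 with doxycycline (adjusted p = 0.00015), and ACADVL, an acyl-CoA dehydrogenase of the same pathway, fell by 0.59 (adjusted p = 0.0011). Doxycycline called 2 higher and 1 lower in siMondoA cells (all genes 15.1% and 14.9%), and 1 of each in siControl cells (16.3% and 14.6%), where PPARG rose by 0.50 (adjusted p = 0.0049). The 3 calls in siMondoA cells became 1 without siMondoA with doxycycline replicate 2 or siMondoA without doxycycline replicate 3, and the lower call in siControl cells, CPT1A, was lost without any of 6 single arrays. Of the angiopoietin and lipase list 2 of 12 genes were tested. ANGPT1, a ligand of the TEK receptor, rose with knockdown under doxycycline by 0.58 and with doxycycline in siMondoA cells by 0.52 (adjusted p = 0.0031 and 0.010, and 0.10 and 0.23 under median scaling). Its other probe gave 0.39 and 0.30 (adjusted p = 0.093 and 0.23). Its receptor TEK was detected on 0 arrays.

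Of 9 tested genes of other angiogenic ligands, knockdown called 4 higher and 3 lower with doxycycline (all genes 21.8% and 22%) and 3 higher and 2 lower without it (12.4% and 12.5%). CCN1, a matrix protein that binds integrins, fell with knockdown by 4.45 ± 0.13 with doxycycline and by 1.58 without it (adjusted p = 5e-10 and 5.1e-06). HBEGF, a ligand of the EGF receptor, fell by 2.33 with doxycycline (adjusted p = 7.9e-08). TGFA, another such ligand, rose by 1.82 with doxycycline and by 1.84 without it (adjusted p = 7e-06 and 2e-05). CXCL8, the chemokine interleukin-8, rose by 2.40 without doxycycline (adjusted p = 8.2e-07).

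Doxycycline called 0 of these 9 ligands higher and 4 lower in siMondoA cells (all genes 15.1% and 14.9%), among them TGFA, CCN1 and EFNA1, which fell by 0.94, 0.84 and 0.65 (adjusted p = 0.0019, 0.00047 and 0.0021). In siControl cells 3 were called higher and 1 lower (16.3% and 14.6%). There CCN1, HBEGF and CXCL8 rose by 2.04, 1.88 and 1.18 (adjusted p = 6.6e-07, 1.1e-06 and 0.00018), the last on the brightest probe only, since the other CXCL8 probe gave 0.47 (adjusted p = 0.16).

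Of 8 tested angiogenesis inhibitors, 5 fell and 1 rose with knockdown, both with doxycycline (all genes 22% and 21.8%, median log2 change -1.32) and without it (12.5% and 12.4%, median -0.69). Like the other lists, this list was chosen with earlier results of these data known, so nothing is read from these counts. SPARC, a collagen-binding matrix protein, fell by 2.51 ± 0.16 with doxycycline and by 1.10 without it (adjusted p = 2e-07 and 0.00037). SERPINF1, which encodes the secreted inhibitor PEDF, fell by 1.63 and by 1.89 (adjusted p = 0.00010 and 0.00012). VASH1, vasohibin 1, was not detected on any array of siMondoA cells with doxycycline and was at least 2.76-fold lower there than in siControl cells (adjusted p = 6.9e-06). Without doxycycline VASH1 fell by 1.39 (adjusted p = 0.00019). SERPINF1 also fell with doxycycline, by 1.32 in siMondoA cells and by 1.58 in siControl cells (adjusted p = 0.00098 and 0.00027), whereas SPARC and THBS1 rose in siControl cells, by 1.79 and 0.84 (adjusted p = 8.8e-06 and 0.00093). Doxycycline called 0 inhibitors higher and 3 lower in siMondoA cells (15.1% and 14.9%) and 2 higher and 2 lower in siControl cells (16.3% and 14.6%), where the 2 lower calls became 1 without siControl with doxycycline replicate 1 or 2 or siControl without doxycycline replicate 1.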

How the data were processed

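Total RNA of Tet21N cells was hybridised to 12 Illumina bead arrays, 3 in each of 4 groups. Per the labels' protocols, cRNA was labelled with biotin (Ambion MessageAmp). The authors deposited probe intensities on a linear scale, neither background-subtracted nor normalized by their values. By its relation to the signal, the deposited detection score is 1 minus a detection p-value. The deposited log2 values equal the log2 of quantile-normalized intensities (largest difference 5.3e-14). The submitters' processing notes name lumi. Its version and what it was used for are not given in the sources used here.

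Of the 47323 probes, 47313 had values. Gene names came from the platform annotation: 30108 carried 1 gene symbol, 17197 none and 8 more than that, and 30069 were matched to RefSeq. Intensities were corrected and quantile-normalized with neqc (offset 16; negative controls inferred from detection p-values) of limma 3.58.1 in R 4.3.3. Probes detected on at least 3 of 12 arrays were kept (22188), and the brightest probe was used for the 3288 genes with several. A 4-group model over all 12 arrays (lmFit, eBayes; 8 residual and 4.552 prior degrees of freedom) gave log2 changes, siMondoA minus siControl and doxycycline minus none. Adjusted p-values are limma's, Benjamini-Hochberg over 12178 genes, with a threshold of 0.05. The median SE was 0.15 (interaction 0.21), and precision is limited by how many arrays there were. Where no array of a group detected the gene, the fold is "at least", computed against the probe's own signal or the dimmest detected signal of that array, whichever was higher.

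The 6 genes and the 9 gene lists (113 genes, 104 on the array, 73 tested) were chosen with earlier results of these data known. Named were the 6 genes, VEGF and adrenomedullin receptors, PAM, ACKR3, HIF1A, EPAS1 and ARNT, up to 3 called genes with the largest change per other list and pairwise comparison (not all are repeated in the text), the label checks, and the 4 genes most correlated with each of the 6. No batch could be tested, as slides and scan dates are not among the labels. Same-numbered arrays of different groups did not deviate together (r from -0.1 to 0.08 over 18 pairs), so the numbers were not taken as pairs. Alternatives were the replicate number as a block, other background corrections, median scaling, the deposited log2 values, other detection filters, the mean of a gene's probes, only the groups compared, and each array left out in turn.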

Additional observations from a re-analysis of the deposited data

Results flagged for a closer look

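Of the 73 tested list genes outside the 6 ligands, 9 (where 8.7% of all genes were called) had a knockdown change that differed between cells with and without doxycycline by the limma interaction (change with doxycycline minus change without). The lists were chosen with earlier results of these data known, so this count is a description. CCN1 gave -2.87 (knockdown -4.45 with doxycycline and -1.58 without, adjusted p = 7.5e-06). HBEGF gave -2.23 (-2.33 and -0.10, adjusted p = 2.7e-05), ACKR3 -1.46 (-2.09 and -0.64, adjusted p = 0.00068) and SPARC -1.41 (-2.51 and -1.10, adjusted p = 0.0026). CXCL8 gave -1.05 (1.35 and 2.40, adjusted p = 0.014), and -0.76 on its other probe (adjusted p = 0.19). THBS1 gave -1.01 (-1.45 and -0.45, adjusted p = 0.011) and EFNA1 gave -0.72 (-1.66 and -0.94, adjusted p = 0.028; leaving out 1 array ended this call for 7 of the 12 arrays, up to 0.069). NRP1 gave -0.82 (-0.59 and 0.24, adjusted p = 0.0093), which was lost when its probes were averaged (adjusted p = 0.11). LDHA, named after its values were seen, gave -0.64 (-0.50 and 0.14, adjusted p = 0.024), a call that ended under median scaling and when its probes were averaged (adjusted p = 0.096), and without any of 5 single arrays.

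Among the 6 ligands, every array moved one way in one arm and the other way in the other arm for a pair of probes. No p-value is given, since the genes were selected on these arrays. The brighter ANGPTL4 probe ILMN_1707727 had a doxycycline change of -0.89 in siMondoA cells and 0.74 in siControl cells, a difference of -1.63, which is the interaction counted as called. The VEGFB probe ILMN_1722855 had a knockdown change of 0.32 with doxycycline and -0.39 without it, a difference of 0.71, which was not tested, as this is not the brightest probe of the gene. The other bright probe of either gene gave a smaller difference, -0.01 for ANGPTL4 and 0.39 for VEGFB.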

How the results depend on the processing

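Of 624 values of the 6 ligands' changes under the alternatives, 560 stayed within the spread between arrays, 64 moved by more and 0 reversed the sign of a change larger than 2 SE. Many of these values could not move. With groups of equal size, the replicate block and the fit of only the groups compared leave log2 changes the same. The other detection filters kept the same brightest probes. Leaving out an array outside a pairwise comparison, or averaging the probes of a gene with 1 probe, changes nothing either. The 560 are therefore not a measure of stability. PGF was most affected by the background correction. Without it, knockdown changes were 2.21 with and 0.71 without doxycycline, doxycycline in siMondoA cells gave 1.42 and the interaction 1.5, and the deposited log2 values gave the same figures. Another background correction, which used the intensities without negative controls and an offset of 50, gave 2.51 for knockdown with doxycycline. Median scaling gave 1.56 for the interaction. With each array left out, PGF ranged from 2.87 to 3.23 and from 0.96 to 1.34 for knockdown with and without doxycycline, from 1.54 to 1.87 and from -0.35 to 0.01 for doxycycline in siMondoA and siControl cells, and from 1.69 to 2.10 for the interaction. Genes called for the interaction numbered 1059, against 1697 without background correction and 1695 with the deposited log2 values. Leaving out 1 array gave 678 (siControl without doxycycline replicate 2) to 1142, with 686 without siControl with doxycycline replicate 3 and 694 without siMondoA with doxycycline replicate 1. With the replicate number as a block, 5240, 2881, 3500, 3647 and 904 genes were called, against 5333, 3026, 3655, 3757 and 1059. Only 3 of 12 arrays correlated best with their own number. Median scaling moved the median change of all genes to -0.06, 0.19, -0.13, 0.11 and -0.27 and the share of calls that were higher to 37.2%, 79.1%, 23.8%, 74.4% and 5.9%, against 49.9%, 49.7%, 50.3%, 52.8% and 40.8%. It gave -0.12 for VEGFC with doxycycline in siMondoA cells, and 0.04 and 0.08 for PGF and VEGFA in siControl cells. Averaging probes moved ANGPTL4 to 1.07 for knockdown without doxycycline, -0.41 and 0.26 for doxycycline in siMondoA and siControl cells, and -0.67 for the interaction. Of 936 counts of called list genes, 852 stayed within 1.5 times and 84 moved by more. The sizes of list changes depended most on the background correction. Of 148 called changes of list genes, TXNIP and MYC, 60 were over 1.5 times smaller without it or with the deposited log2 values. With the correction that used no negative controls and an offset of 50, 24 were. The numbers were 19 under median scaling, 9 with averaged probes, and 0 when any array was left out. Without background correction, knockdown with and without doxycycline gave 0.68 and 0.90 for TGFA, -0.60 and -0.39 for PDGFA, -0.52 and -0.31 for PDGFD, -0.64 and -1.17 for SERPINF1, -0.67 and -0.57 for VASH1, 0.45 and 0.44 for LOX, and 0.55 and 0.40 for HIF1AN. HBEGF gave -1.44 with doxycycline and EPAS1 0.49 without it. Doxycycline in siControl cells gave 1.88 for MYC, 1.23 for HBEGF, 0.59 for EPAS1 and -0.89 for HK2, and in siMondoA cells 0.27 for ARNT. Signals near background limit VEGFA and the receptors.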
